A study of Homo sapiens with 12 samples.

Results

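The genes described here are 10 transporters that carry amino acids across the plasma membrane: SLC7A11, SLC7A5, SLC3A2, SLC7A1, SLC1A5, SLC1A4, SLC38A2, SLC38A1, SLC6A9 and SLC43A1. They were chosen by symbol as amino acid and cystine transporters known to respond to cell stress, with no threshold on their values. The choice was made with earlier results of these data known, so shares set beside those of all genes are descriptions only. The 10 symbols matched 10 of the 58735 genes in the table. The RNA sequenced was that of the established human mesothelioma line MSTO-211H, which the submitters grew in suspension with SM1, EGF, bFGF and heparin and describe as mesothelioma-initiating. All cells came from this 1 line and medium. The 4 groups of 3 libraries each were Con (vehicle and sham exposure), IR (vehicle and 4 Gy), Rx (read as 10 µM QTP and sham exposure) and Combo (read as 10 µM QTP and 4 Gy). Radiation followed the compound by a day, and RNA was taken 48 h after irradiation. The labels name the compound only as QTP, and the series title speaks of dopamine receptor inhibition with radiotherapy. The titles give only Con, IR, Rx and Combo, and the reading of Rx and Combo follows from the 4 arms of the design text. Whether the 3 libraries of a group stem from separate cultures is not in the labels, and p-values therefore reflect a spread that may be technical.

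As background, cells take up amino acids through carriers, some of which exchange one amino acid for another and some of which couple uptake to the sodium gradient. SLC7A11 imports cystine for glutathione synthesis and SLC7A5 imports leucine and other large neutral amino acids, and both need the heavy chain SLC3A2 to reach the cell surface. When amino acids run short or other stresses slow translation, the transcription factor ATF4 raises many of these genes, acting with C/EBP proteins at a composite DNA element often called a CARE. SLC7A11 is also a target of NRF2, which binds antioxidant response elements.

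The genes with a CARE are shown first, because the element is the known link between the family and ATF4. RefSeq promoter windows of GRCh38.p14 (250 bases before to 50 after each listed start) were matched for 9 of the 10 genes, all but SLC7A11, which was not searched, and gave 16 windows, since several genes have more than 1. The letters TGATGNAA, read on both strands, were present in 5 of the 16 windows and in 5 of the 9 genes, against 2.69% of 22198 windows and 3.6% of 15842 genes over all protein-coding genes. Each site is given 5′ to 3′ on the gene's strand with the matching letters in capitals, and the capitals of SLC3A2 and SLC1A4 are the element read on the opposite strand.
SLC3A2, chr11:62881719-62881748 (+): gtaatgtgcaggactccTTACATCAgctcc
SLC7A1, chr13:29595663-29595692 (-): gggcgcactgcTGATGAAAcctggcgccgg
SLC1A5, chr19:46784893-46784922 (-): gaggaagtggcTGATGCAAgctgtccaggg
SLC1A4, chr2:64989381-64989410 (+): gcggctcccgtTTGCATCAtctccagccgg
SLC38A1, chr12:46266502-46266531 (-): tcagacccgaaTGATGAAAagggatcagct
The letters TGACNNNGC, the core of an antioxidant response element, were present in 4 of 16 windows and 4 of 9 genes (SLC7A5, SLC3A2, SLC7A1 and SLC1A5), against 13.8% of all windows and 17.9% of all genes. No match of one kind overlapped one of the other. A match is a description of letters and not of binding, and a window without one says only that these letters are not in it. The genes were chosen as known to respond to stress, and the CARE is their known link to ATF4. The CARE shares are thus not independent of the choice. Shares of genes also depend on the windows per gene, 16 for 9 genes here and 22198 for 15842 over all.

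The 250 bases before the start are printed for SLC3A2 and SLC7A1, which held both elements in one window, with the antioxidant core in capitals; in SLC3A2 its first letters, TGACTCA, are also those of an AP-1 site. The start used for SLC3A2 lies 25597 bases inside the gene as the table draws it, and those of the sites above lie 3780 bases inside for SLC1A5, 3501 for SLC38A1 and 922 for SLC1A4, while that of SLC7A1 is the table's own. The CARE letters of SLC3A2 and SLC7A1 lie after the start and so appear only in the sites above. The same stretch of SLC38A2, which had the highest level of the 10 genes, held neither set of letters and is printed beside them. The CARE letters were also absent from the windows of SLC7A5, SLC6A9 and SLC43A1. A link between the letters and the differences below was not tested.
SLC3A2, chr11:62881449-62881698 (+): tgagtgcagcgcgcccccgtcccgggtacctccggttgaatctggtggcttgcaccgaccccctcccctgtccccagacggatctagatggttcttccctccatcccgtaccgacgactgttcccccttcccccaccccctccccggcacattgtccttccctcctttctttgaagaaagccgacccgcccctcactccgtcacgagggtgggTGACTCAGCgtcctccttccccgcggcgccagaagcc
SLC7A1, chr13:29595689-29595938 (-): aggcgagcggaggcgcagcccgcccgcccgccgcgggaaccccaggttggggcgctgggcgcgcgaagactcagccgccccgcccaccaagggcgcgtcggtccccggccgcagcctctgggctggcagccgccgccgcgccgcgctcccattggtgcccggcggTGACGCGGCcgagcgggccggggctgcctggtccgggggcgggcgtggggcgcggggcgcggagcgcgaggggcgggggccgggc
SLC38A2, chr12:46372774-46373023 (-): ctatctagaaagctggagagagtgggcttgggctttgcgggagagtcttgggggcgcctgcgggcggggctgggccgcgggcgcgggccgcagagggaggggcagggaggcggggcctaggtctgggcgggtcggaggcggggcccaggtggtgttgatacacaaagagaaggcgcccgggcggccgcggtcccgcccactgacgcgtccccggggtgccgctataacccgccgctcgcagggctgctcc

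Whole reads recovered from the deposited FPKM (reads scaled to gene length and library) came to 13188257 to 18630958 per library, with a mean of 15039389 in the 6 libraries without QTP and 17681449 in the 6 with it. Mitochondrial genes took 6.73% to 10.5% of reads, and IR replicates 1 and 3 differed the most of any replicate pair (chi-square per degree of freedom 39.9, against 7.09 at the lowest). Of 12 mesothelial markers 6 averaged at least 1 FPKM, MSLN at 40.1 and CALB2 at 20.2 among them, while 4 averaged under 0.1 (PDPN, KRT19, UPK3B and ITLN1). Summed over the 12 markers, the group means were 1190 FPKM (Con), 1220 (IR), 1122 (Rx) and 859 (Combo), of which the keratins KRT8 and KRT18 made up 93.4%. The other 10 markers summed to 75.6, 76.9, 75.3 and 62.7 FPKM in the same order, and neither the part of this difference nor that of depth in the results was tested. Markers of immune, endothelial, epithelial and fibroblast cells were under 0.1 FPKM for 11 of 12 genes, and their sum was 1.81 to 3.83 FPKM. In such bulk RNA, fewer cells of a kind and less RNA per cell cannot be told apart.

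SLC38A2, the sodium-coupled carrier of small neutral amino acids that adapts to amino acid shortage, was the highest of the 10 genes at a mean of 208 FPKM over the 12 libraries, rank 129 of the 13038 genes that averaged 1 FPKM or more. It alone made up 45.8% to 57.4% of the summed FPKM of the 10 genes in each library. Next came SLC1A5 (48.2 FPKM), the main glutamine carrier of many tumour lines, and SLC38A1 (44.7), a glutamine carrier of the same family as SLC38A2. Then followed SLC3A2 (31.4), the cationic amino acid carrier SLC7A1 (24.96), SLC7A5 (20.3) and SLC7A11 (19.0). Neighbours in this order overlapped in their range over the libraries from SLC1A5 to SLC38A1 and along SLC3A2, SLC7A1, SLC7A5 and SLC7A11, but not between SLC38A2 and SLC1A5 or between SLC38A1 and SLC3A2. The glycine carrier SLC6A9 (2.94 FPKM), the alanine and serine carrier SLC1A4 (2.24) and the branched-chain amino acid carrier SLC43A1 (1.88) were far lower and overlapped each other, from 137 to 345, 145 to 366 and 78 to 148 reads per library. SLC7A11 rested on 2071 to 4812 reads and SLC38A2 on 18757 to 26083.

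Among 42 amino acid transporters, the 10 genes and 32 others, the 7 highest were all among the 10. Of the other 32, 13 averaged at least 1 FPKM and 13 averaged under 0.1. The highest were SLC38A10 (11.96 FPKM) and the lysosomal glutamine and asparagine carrier SLC38A7 (9.98), then CTNS (7.87), which exports cystine from lysosomes, and the lysosomal cationic carrier SLC66A1 (6.61). SLC7A6, a partner of SLC3A2 in the same family as SLC7A5, averaged 5.65 FPKM and the taurine carrier SLC6A6 4.69. Lower still were SLC36A4 (4.03), SLC6A15 (3.47), SLC36A1 (2.80), SLC38A6 (2.76), SLC43A2 (2.57), SLC38A9 (1.73) and SLC7A2 (1.149).

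**Figure D1:**
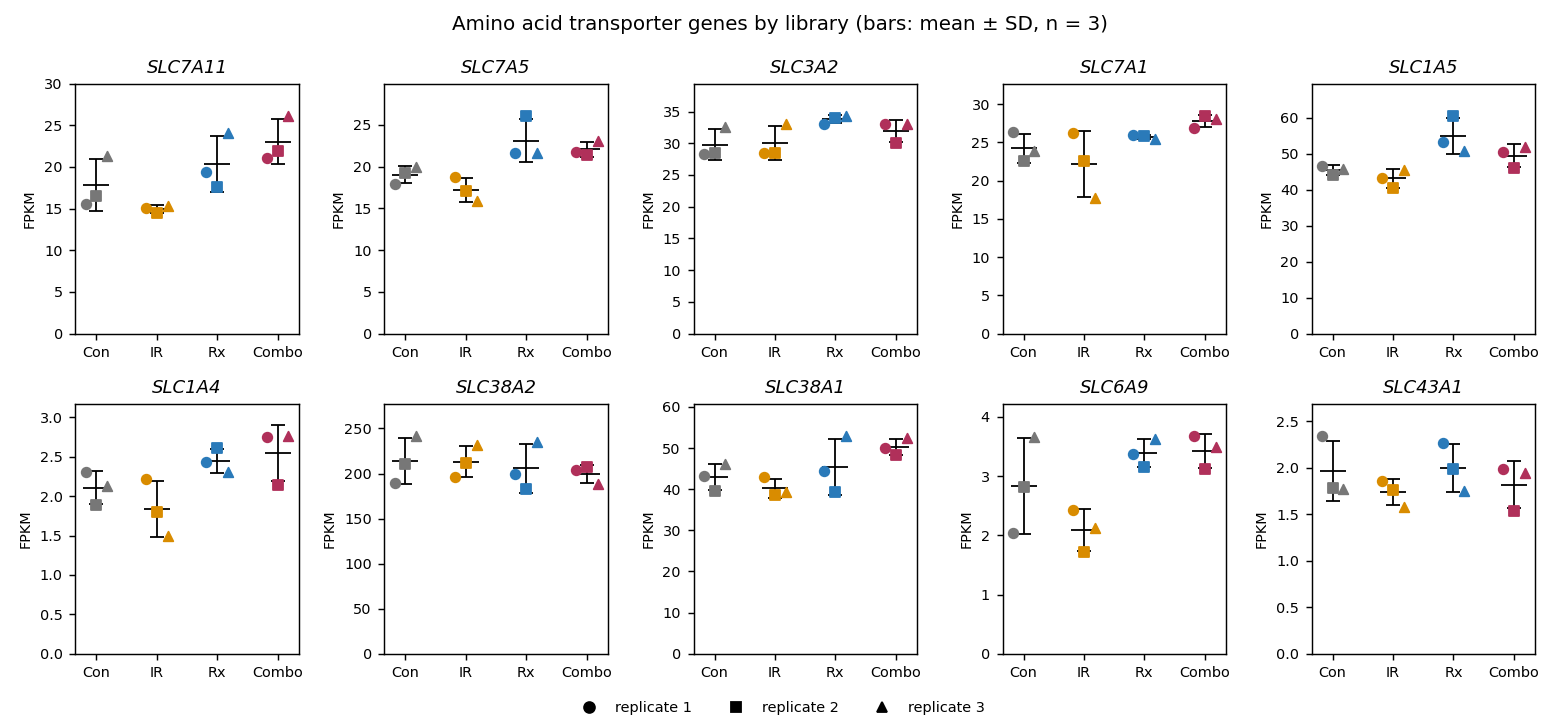
FPKM of the 10 transporters in each of the 12 libraries, by group. Points are single libraries, bars are the group mean ± SD (n = 3), and each panel has its own axis. SLC7A5 lies between 15.9 and 20.0 FPKM in the 6 libraries without QTP and between 21.4 and 26.0 in the 6 with it, whereas SLC38A2 overlaps in all 4 groups.

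Over both radiation arms, QTP went with a higher mean of 9 of the 10 genes, against 48.1% of all 13038 genes tested, and the median log2 difference of the 10 was 0.22. Only SLC43A1, whose difference was near 0, changed sign in any alternative setting (2 of 20). By limma on log2(FPKM + 1) with Benjamini-Hochberg adjustment 0 of the 10 passed an adjusted p of 0.05, against 0.092% of all genes (12). At an unadjusted p under 0.05, 8 of the 10 were higher, against 5.21% of all genes. The largest differences were those of SLC7A11 (0.39) and SLC6A9 (0.37), in the reverse order with a pseudocount of 0.1 (0.41 and 0.49), and the smallest p was that of SLC7A5. With no adjusted call, the values below describe these libraries. The group comparisons reported here share libraries, Con serving 3 of them, so their counts do not add to each other; Rx against Con and Combo against IR have no library in common, nor do IR against Con and Combo against Rx. The QTP average over both arms is made from the first of these pairs of comparisons, so it is not a further one.

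SLC7A11, the cystine importer (chromosome 4, 138164097 to 138242349, minus strand, hg38), was at 15.5, 16.5 and 21.3 FPKM in Con and at 15.03, 14.4 and 15.4 in IR. It was at 19.3, 17.6 and 24.1 FPKM in Rx and at 21.1, 21.9 and 26.1 in Combo. IR held the lowest values, each below every Con library, and all Combo values lay above all IR values, while Rx overlapped Con. The means were 17.8 ± 3.12, 14.9 ± 0.479, 20.4 ± 3.36 and 23.0 ± 2.68 FPKM (SD, n = 3) in the order Con, IR, Rx, Combo. The averaged QTP difference was 0.39 (SE 0.09, 95% interval 0.18 to 0.59), and its adjusted p by limma was 0.176. Of the 6 libraries with QTP, 3 lay above the highest without it. An antisense gene on the opposite strand, SLC7A11-AS1, averaged 12.2 FPKM and held reads equal to 40.8% of those of SLC7A11. The use of strand in counting is not given in the sources used here, so both values are uncertain to that extent. The averaged QTP difference of SLC7A11-AS1 was 0.00 (SE 0.10).

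SLC3A2, the heavy chain of SLC7A11 and SLC7A5 (chromosome 11, 62856102 to 62888875), was at 28.2, 28.5 and 32.6 FPKM in Con, 28.5, 28.4 and 33.1 in IR, 33.1, 34.1 and 34.3 in Rx and 33.0, 29.98 and 33.0 in Combo. Rx lay above Con with no overlap, and Combo overlapped IR. Its averaged QTP difference was 0.14 (SE 0.06, limma adjusted p = 0.409). The ratio of SLC7A11 to SLC3A2 FPKM averaged 0.595 ± 0.0546 (Con), 0.500 ± 0.0323 (IR), 0.602 ± 0.0942 (Rx) and 0.720 ± 0.0756 (Combo), each with its SD (n = 3).

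SLC7A5, the leucine importer (chromosome 16, 87830023 to 87869488), was at 17.9, 19.2 and 20.0 FPKM in Con, 18.7, 17.0 and 15.9 in IR, 21.6, 26.0 and 21.6 in Rx and 21.7, 21.4 and 23.1 in Combo. All 6 libraries with QTP (median 21.7 FPKM) lay above all 6 without it (median 18.3), a separation found among the 10 genes for SLC7A5 only and in 0.621% of all genes in that direction. The averaged difference was 0.30 (SE 0.06, 95% interval 0.17 to 0.44), with a limma adjusted p of 0.118 and rank 39 by p. A pseudogene, SLC7A5P1, averaged 3.6 FPKM and held reads equal to 2.0% of those of SLC7A5; reads may have been split between the 2 copies. SLC43A1, which carries branched-chain amino acids without SLC3A2, had no such separation. It was at 2.33, 1.78 and 1.77 FPKM in Con, 1.86, 1.76 and 1.58 in IR, 2.26, 1.99 and 1.74 in Rx and 1.98, 1.53 and 1.94 in Combo, and its averaged difference was 0.03 (SE 0.08).

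SLC7A1, which imports arginine and lysine (chromosome 13, 29509410 to 29595688), was at 26.3, 22.6 and 23.8 FPKM in Con, 26.2, 22.5 and 17.7 in IR, 26.0, 25.8 and 25.4 in Rx and 26.8, 28.4 and 28.03 in Combo. Combo lay above each of the other groups with no overlap, and IR was the most spread (SD 4.29 FPKM, n = 3). The averaged difference was 0.21 (SE 0.08, limma adjusted p = 0.394).

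SLC1A5, the glutamine, alanine and serine exchanger (chromosome 19, 46774883 to 46788594), was at 46.6, 43.9 and 45.8 FPKM in Con, 43.3, 40.5 and 45.5 in IR, 53.3, 60.4 and 50.6 in Rx and 50.4, 45.9 and 52.0 in Combo. Of the 6 libraries with QTP, 5 lay above every library without it, and Combo replicate 2 was the exception. The averaged difference was 0.23 (SE 0.06, limma adjusted p = 0.191). SLC1A4, its lower-expressed relative (chromosome 2, 64988477 to 65023865), was at 2.31, 1.89 and 2.13 FPKM in Con, 2.21, 1.81 and 1.496 in IR, 2.44, 2.61 and 2.31 in Rx and 2.75, 2.14 and 2.76 in Combo. Its averaged difference was 0.24 (SE 0.08), close to that of SLC1A5 on the log2(FPKM + 1) scale, which understates the change of a gene this low.

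The carriers SLC38A1 and SLC38A2 had averaged QTP differences of opposite sign, and the difference between them was not tested. SLC38A1 (chromosome 12, 46183063 to 46270017) was at 43.2, 39.7 and 46.0 FPKM in Con, 42.9, 38.6 and 39.3 in IR, 44.3, 39.4 and 52.8 in Rx and 50.0, 48.3 and 52.3 in Combo. Combo lay above Con and IR with no overlap, and the averaged difference was 0.19 (SE 0.07, limma adjusted p = 0.374). SLC38A2 (chromosome 12, 46358189 to 46372867) was at 189.8, 210.5 and 241 FPKM in Con, 196, 212 and 232 in IR, 199.6, 182 and 235 in Rx and 204, 207 and 188 in Combo. It was the one gene of the 10 with a lower mean under QTP, -0.07 (SE 0.08, 95% interval -0.25 to 0.11). Per library, the ratio of SLC38A2 to SLC38A1 averaged 4.98 ± 0.508 (Con), 5.32 ± 0.677 (IR), 4.53 ± 0.0925 (Rx) and 3.99 ± 0.351 (Combo), each with its SD (n = 3).

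SLC6A9, the glycine carrier (chromosome 1, 43991500 to 44031467), was at 2.04, 2.82 and 3.65 FPKM in Con, 2.43, 1.72 and 2.12 in IR, 3.38, 3.16 and 3.63 in Rx and 3.67, 3.11 and 3.50 in Combo. The 6 QTP libraries ran from 3.11 to 3.67 FPKM and Con replicate 3 reached into that range. The averaged difference was 0.37 (SE 0.10, limma adjusted p = 0.227). CCDC24, which overlaps it, held reads equal to 54.4% of those of SLC6A9 and had an averaged difference of -0.01 (SE 0.08). A noncoding gene that also overlaps it, AL139220.2, held reads equal to 16.8%. The value of SLC6A9 is thus uncertain in the same way as that of SLC7A11. Overlapping genes were listed for SLC7A11 and SLC6A9 only, so their absence elsewhere is not shown.

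**Figure D2:**
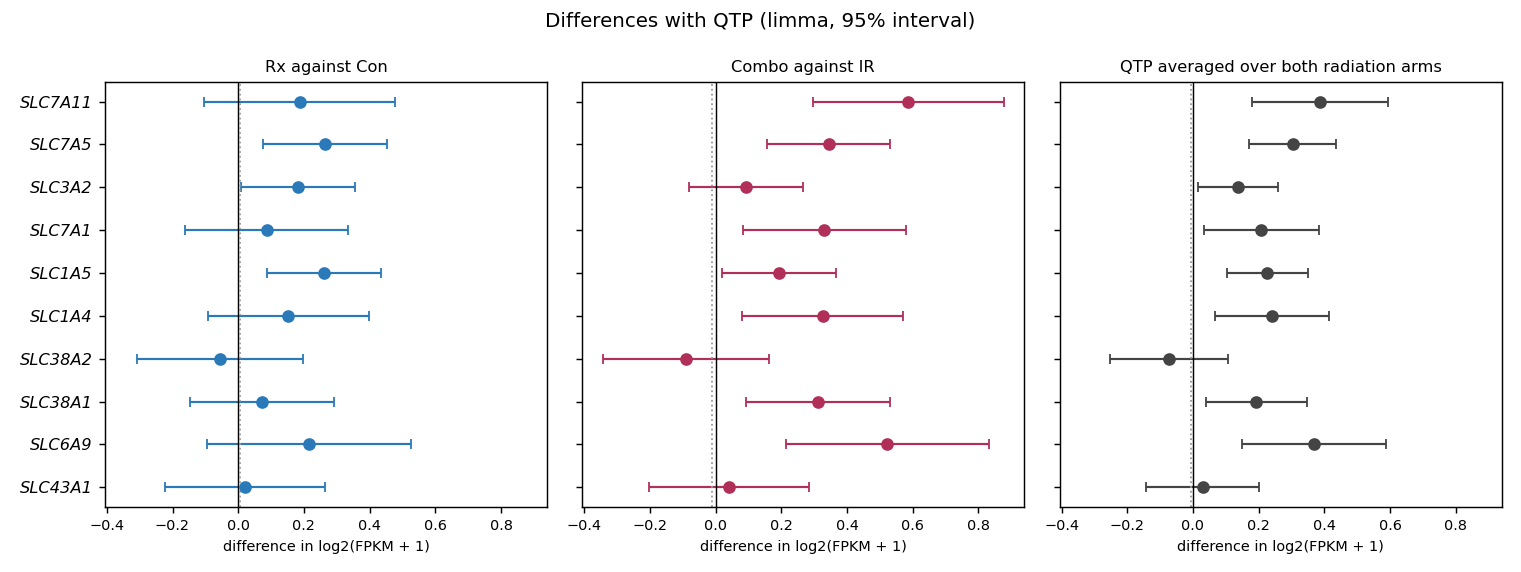
Log2(FPKM + 1) differences of the 10 transporters for QTP without radiation (Rx against Con), QTP with radiation (Combo against IR) and the average of both; points are limma estimates and bars 95% intervals. SLC38A2 and SLC43A1 lie near 0, and SLC7A11 is at 0.19, 0.59 and 0.39.

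Without radiation (Rx against Con), 9 of the 10 genes had a higher mean in Rx, against 51.7% of all genes, with a median of 0.17. By limma 0 of the 10 passed the adjusted threshold (0% of all genes), and 3 passed an unadjusted p of 0.05 in the higher direction, against 2.36% of all genes. They were SLC7A5 (0.26, SE 0.09), SLC1A5 (0.26, SE 0.08) and SLC3A2 (0.18, SE 0.08), each at adjusted p = 1. SLC7A5 and SLC1A5 kept an unadjusted p under 0.05 in 21 of 22 alternatives each, and SLC3A2 in 13 of 22. With TPM, none of these 3 genes kept it. The same 3 genes were the ones whose groups did not overlap, against 4.6% of all genes. SLC7A11 differed by 0.19 (SE 0.13) and SLC6A9 by 0.21 (SE 0.14), both with intervals that held 0.

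In irradiated cells (Combo against IR), 9 of the 10 had a higher mean in Combo, against 47.4% of all genes, and the median was 0.32. By limma 0 of 10 passed the adjusted threshold (0% of all genes). At an unadjusted p under 0.05, 7 were higher, against 5.91% of all genes, and the groups of 6 did not overlap, against 8.53%. SLC7A11 differed by 0.59 (SE 0.13, 95% interval 0.30 to 0.88, adjusted p = 0.165) and SLC6A9 by 0.52 (SE 0.14, adjusted p = 0.171). SLC7A5 differed by 0.34 (SE 0.09), SLC7A1 by 0.33 (SE 0.11), SLC1A4 by 0.33 (SE 0.11), SLC38A1 by 0.31 (SE 0.10) and SLC1A5 by 0.19 (SE 0.08). Of these 7 only SLC1A4 overlapped between the groups. With a pseudocount of 0.1, SLC6A9 (0.70) stood above SLC7A11 (0.62). SLC3A2 differed by 0.09 (SE 0.08) and SLC43A1 by 0.04 (SE 0.11). Without library IR replicate 1, limma called 956 genes (7.33% of all, with 262 or 2.01% of all higher in Combo), and 5 of the 10 were among them, all higher: SLC7A11 (0.59, adjusted p = 0.0474), SLC7A5 (0.40, 0.0334), SLC7A1 (0.46, 0.0313), SLC1A4 (0.42, 0.0499) and SLC6A9 (0.60, 0.0463). IR replicate 1 was the highest of its group in 6 of the 10 genes, though not for SLC7A11. Con replicate 3 and Combo replicate 3 were also the highest of theirs in 6, and the part of this in the calls was not tested.

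The difference between these responses, the interaction of QTP and radiation, was 0.40 for SLC7A11 (SE 0.19, 95% interval -0.01 to 0.81, limma adjusted p = 0.609) and 0.31 for SLC6A9 (SE 0.20). With a pseudocount of 0.1 in place of 1, which shrinks low genes less, they were 0.42 and 0.41. With the replicate number as a block the unadjusted p of SLC7A11 was under 0.05, as in 8 of 21 alternatives in all (limma adjusted p = 0.541 with the block). In the main fit, none of the other 9 had an unadjusted limma p under 0.117. Over the alternatives, SLC38A1 was under 0.05 in 3 of 21, SLC6A9 in 2 of 20 and SLC7A1 in 1 of 21. The interaction median of the 10 was 0.13, and 7 had one above 0, against 44.9% of all genes. By limma 0 of the 10 passed the adjusted threshold (0% of all genes), and 0 were above 0 at an unadjusted p under 0.05, against 2.32% of all genes. A p that misses the threshold does not show that QTP acted alike in both arms.

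Radiation alone (IR against Con) went with a lower mean of 8 of the 10, against 47.4% of all genes, with a median of -0.12. By limma 0 of the 10 passed the adjusted threshold (0% of all genes) or an unadjusted p of 0.05 in the lower direction (3.17%). SLC6A9 differed by -0.30 (SE 0.14, adjusted p = 0.727) and SLC7A11 by -0.23 (SE 0.13, adjusted p = 0.751). SLC7A11 was the gene whose 3 IR libraries all lay below Con, against 4.98% of all genes. With the replicate number as a block, SLC7A11 had an unadjusted p under 0.05 here and in Rx against Con, with no adjusted call. SLC38A2 and SLC3A2 differed by 0.00 (SE 0.12) and 0.01 (SE 0.08). Averaged over both drug arms, radiation gave a median of -0.04 with 0 of 10 past the adjusted threshold (0% of all genes) and 0 lower at an unadjusted p under 0.05, against 5.17% of all genes; the smallest p was that of SLC1A5 (-0.11, SE 0.06).

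**Figure D3:**
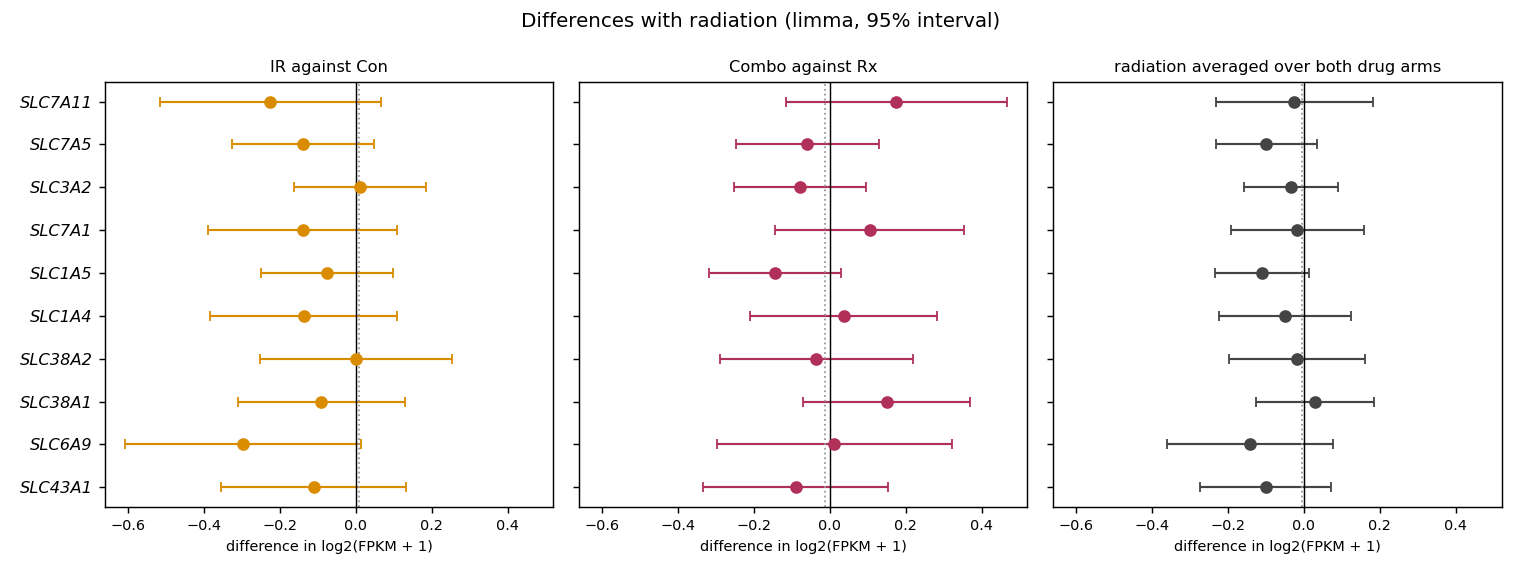
Log2(FPKM + 1) differences of the 10 transporters for radiation without QTP (IR against Con), radiation with QTP (Combo against Rx) and the average of both; points are limma estimates and bars 95% intervals. SLC7A11 goes from -0.23 without QTP to 0.18 with it, and all intervals hold 0.

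With both treatments against neither (Combo against Con), 8 of the 10 had a higher mean in Combo, against 48.5% of all genes, and the median was 0.19. By limma 0 of the 10 passed the adjusted threshold (0% of all genes), and 3 were higher at an unadjusted p under 0.05, against 5.49% of all genes: SLC7A11 (0.36, SE 0.13, adjusted p = 0.299), SLC38A1 (0.22, SE 0.10) and SLC7A5 (0.20, SE 0.09). Of 22 alternatives, SLC7A11 kept an unadjusted p under 0.05 in 18, SLC7A5 in 16 and SLC38A1 in 10. The groups of SLC7A5, SLC7A1 and SLC38A1 did not overlap, against 10% of all genes, whereas Con replicate 3 of SLC7A11 (21.3 FPKM) reached the lowest Combo value (21.1). Against QTP alone (Combo against Rx), 5 of the 10 had a higher mean, against 46% of all genes, and 0 were higher (2.81% of all genes) or lower (6.3%) at an unadjusted p under 0.05, with 0 adjusted calls among the 10 and in 0% of all genes. The groups of SLC7A1 did not overlap with Combo higher (8.26% of all genes), nor those of SLC3A2 with Combo lower (12.7%).

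Over the 12 libraries, which share a line and a medium and differ by group in treatment and depth, SLC7A11 ran with SLC38A1 (Pearson r 0.90 on log2(FPKM + 1), and 0.78 after group means were removed) and with SLC6A9 (0.86 and 0.67). SLC7A1 ran with SLC1A4 (0.85 and 0.71) and SLC7A5 with SLC1A5 (0.84 and 0.45). SLC7A5 and its heavy chain SLC3A2 had an r of 0.56 that was -0.01 within groups, and SLC7A11 and SLC3A2 had 0.62 and 0.55. Of the 45 pairs, 37 had a positive r over all libraries and 25 within groups, with medians of 0.482 and 0.0864. These are descriptions with no test.

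**Figure D4:**
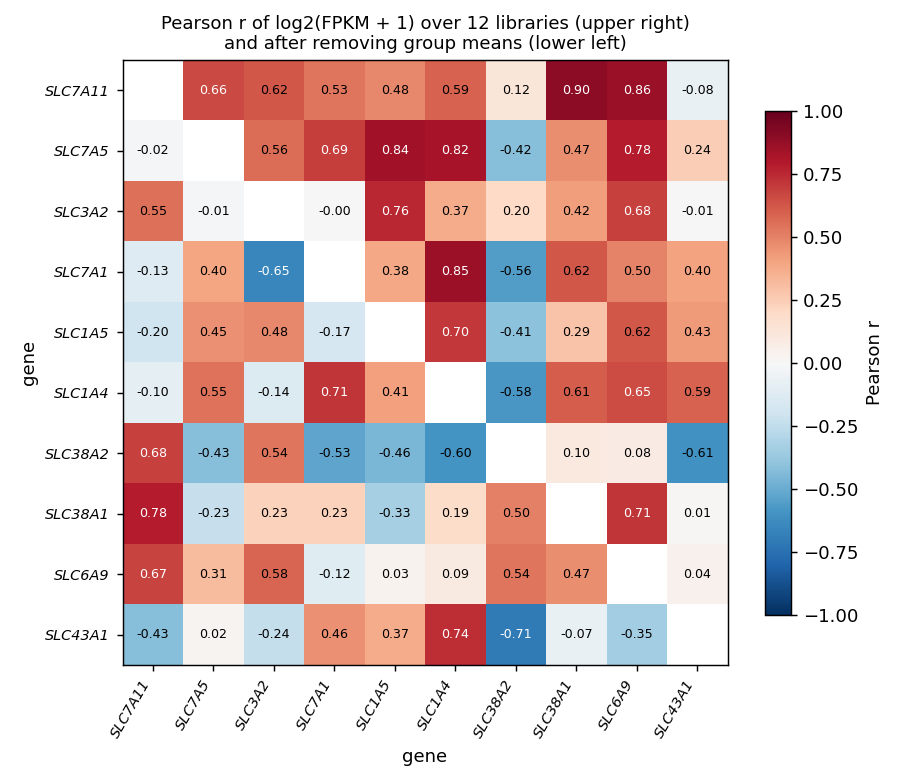
Pearson r between the 10 transporters on log2(FPKM + 1), over the 12 libraries and after group means were removed. The pair SLC7A11 and SLC38A1 is at 0.90 and 0.78, and SLC38A2 with SLC43A1 at -0.61 and -0.71.

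For each of the 10, the 3 other genes with the highest Pearson r over the 12 libraries were taken from 13028, and the top 3 of so many are high by selection. SLC7A11 was most like CHST11 (0.92), USP54 (0.90) and NEK8 (0.89). For SLC7A5 they were ACLY, which makes cytosolic acetyl-CoA (0.94), CEACAM19 (0.94) and MVK, mevalonate kinase (0.93). SLC3A2 ran with GARS, a glycyl-tRNA synthetase (0.95), RPLP0P2 (0.90) and the caspase CASP10 (0.88), and SLC7A1 with the receptor IGF2R (0.95), the histone demethylase KDM6B (0.95) and MROH1 (0.95). For SLC1A5 the genes were MPZL1 (0.91), DBI (0.90) and ZC3H12A (0.90), and for SLC1A4 VAC14 (0.93), P2RY11 (0.91) and ZNF837 (0.91). SLC38A2 ran with AC012360.3 (0.96), WDR43 (0.95) and KANK3 (0.93), and SLC38A1 with the collagen receptor DDR2 (0.97), MON1B (0.97) and the lipid kinase PIK3C2A (0.95). SLC6A9 ran with PROSER1 (0.93), MARS, a methionyl-tRNA synthetase (0.93), and the deacetylase HDAC6 (0.92). For SLC43A1 they were the kinase MAP3K8 (0.92), CD163L1 (0.84) and RNU6-767P (0.82).

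Of 20 genes of the ATF4 and amino acid response, 18 were tested; CHAC1 (0.928 FPKM) and NUPR1 (0.173) were under the filter. With QTP averaged, 16 of the 18 had a higher mean (median 0.16, against 48.1% of all genes), 7 were higher at an unadjusted p under 0.05, against 5.21% of all genes, and 0 passed the adjusted threshold. SESN2, an inhibitor of mTORC1 signalling under leucine shortage, differed by 0.36 (SE 0.07, limma adjusted p = 0.0774), and averaged 18.2 ± 1.81 FPKM for Con and 26.0 ± 2.32 for Combo (SD, n = 3). TRIB3, a pseudokinase target of ATF4, differed by 0.49 (SE 0.11, adjusted p = 0.125), the stress factor DDIT3 by 0.35 (SE 0.11) and the asparagine synthetase ASNS by 0.36 (SE 0.09). ATF4 itself, whose protein is set mainly by translation, differed by 0.12 (SE 0.07). In Combo against Con the median of the 18 was 0.28, with CEBPB, a C/EBP factor, at 0.49 (SE 0.13).

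The 13 other transporters above the filter had a median of 0.10 with QTP averaged, and 12 had a higher mean; CTNS differed by 0.19 (SE 0.05), SLC38A7 by 0.17 (SE 0.04) and SLC38A9, the lysosomal arginine sensor, by 0.04 (SE 0.08). Of 21 genes of cystine use and glutathione, which include SLC7A11 and SLC3A2, 15 had a higher mean (median 0.08), with TXNRD1, thioredoxin reductase, at 0.30, ACSL4, a lipid enzyme of ferroptosis, at 0.22 and GCLM, a subunit of the enzyme that starts glutathione synthesis, at 0.19. NFE2L2, which encodes NRF2, differed by -0.05. The medians of the lists for serine, glycine and one-carbon enzymes (10 genes, -0.01), glutamine use (15, 0.01), mTORC1 signalling (23, -0.03) and branched-chain amino acid use (7, -0.06) stood beside one of -0.00 for all genes. In each of these lists 0 genes passed the adjusted threshold.

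**Figure D5:**
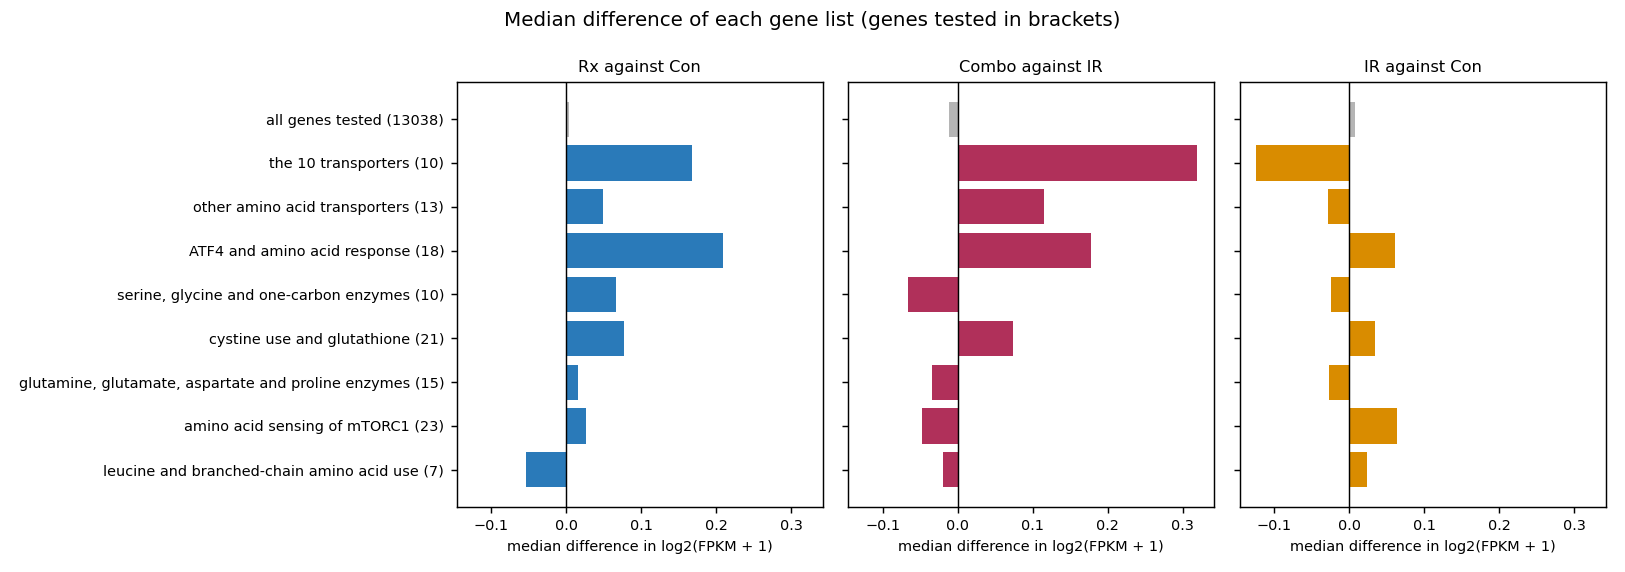
Median log2(FPKM + 1) difference of each gene list in Rx against Con, Combo against IR and IR against Con, beside the median of all 13038 tested genes. In Rx against Con, the 10 transporters are at 0.17, the ATF4 list at 0.21 and the 13 other transporters at 0.05. In Combo against IR they are at 0.32, 0.18 and 0.11.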

How the data were processed

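RNA of 12 libraries (4 groups of 3, named by their titles) was measured by RNA sequencing with the NEBNext Ultra RNA kit, per the labels. The authors deposited FPKM for 58735 genes with hg38 coordinates, the build being per the submitters' processing notes; how reads were aligned, counted by strand and scaled is not given in the sources used here. Other deposited columns hold gene lengths. Multiplied by that length, 100% of the values above 0 came out as whole reads (tolerance 0.01 of a read). Reads so recovered were used for depth and for limma voom, which called 33 genes with QTP averaged and 0 in the other 7 comparisons.

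The log2(FPKM + 1) of the 13038 genes averaging 1 FPKM or more was fitted by group over all 12 libraries with limma 3.58.1 in R 4.3.3 (variance trend, two-sided moderated tests, Benjamini-Hochberg, threshold 0.05) in 8 comparisons. The fit was tested on simulated data. The 10 genes, the companion lists and the tests were chosen with earlier results of these data known. All 10 genes are named. From each companion list, the up to 3 with the smallest p in Combo against Con and in QTP averaged, and a fixed set (ATF4, ASNS, DDIT3, TRIB3, CHAC1, SESN2, NFE2L2, GCLM, PHGDH, SHMT2, SLC38A9), could be named. The 3 tested genes with the highest r were taken for each of the 10. Alternatives were a pseudocount of 0.1, no filter, a mean of at least 5 FPKM, TPM, median of ratios or quantile scaling, protein-coding genes, only the groups compared, no trend, quality weights, voom, the replicate block, and libraries left out.

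Replicate numbers come from the titles, which do not say what a number shares. Same-numbered deviations correlated at 0.16 to 0.35 in IR against Con and 0.19 to 0.28 in Rx against Con, over 0.1 in all 3 pairs. In Combo against Con, IR and Rx, 1, 1 and 2 of 3 pairs did so.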

Additional observations from a re-analysis of the deposited data

How the results depend on the processing

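With 3 libraries a group, the number called depended on the setting. The count of the 10 genes called stayed at 0 under the alternatives run in all 8 comparisons, except Combo against IR, where leaving out 1 library gave 0 to 5. Over the alternatives the median of the 10 ran from 0.17 to 0.25 (QTP averaged), 0.19 to 0.40 (Combo against IR), 0.09 to 0.20 (Rx against Con), 0.14 to 0.21 (Combo against Con) and -0.20 to -0.07 (IR against Con). The number of the 10 at an unadjusted p under 0.05, in either direction, ran from 5 to 8 (QTP averaged), 3 to 8 (Combo against IR), 0 to 5 (Rx against Con), 0 to 4 (Combo against Con) and 0 to 3 (IR against Con, Combo against Rx and the interaction). The shares of all genes under each alternative are not given here, so these counts cannot be set beside them. With TPM the median of all genes itself was 0.07 in Combo against IR, -0.07 in Rx against Con, -0.08 in IR against Con and 0.00 with QTP averaged. With QTP averaged, SLC7A11, SLC7A5 and SLC1A5 kept an unadjusted p under 0.05 in all 21 alternatives. SLC6A9 did so in all 20 that included it and SLC1A4 in 19 of 20. Of 21 alternatives, SLC38A1 kept it in 19, SLC7A1 in 18 and SLC3A2 in 13. In Combo against IR, SLC43A1 changed sign in 3 of 21 alternatives and SLC38A2 in 2 of 22; in Rx against Con, SLC43A1 did so in 5 of 21, SLC38A1 and SLC38A2 in 2 of 22 each and SLC7A1 in 1 of 22, all without a call. Filtering at 5 FPKM left out SLC6A9, SLC1A4 and SLC43A1.

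Of all genes, a fit with no filter called 5 for radiation alone, 1 for QTP alone, 5 for Combo against Con, 6 for Combo against IR, 4 for Combo against Rx, 6 with QTP averaged, 5 with radiation averaged and 6 for the interaction, in place of 12 with QTP averaged and 0 elsewhere. The count with QTP averaged was 24 at a mean of at least 5 FPKM, 0 with TPM, 0 with median of ratios scaling, 33 with voom, 33 with voom on the authors' library totals (chosen after seeing the data) and 0 without IR 3 and Combo 3. Leaving out 1 library gave 0 to 3 genes in IR against Con, 0 to 956 in Combo against IR (956 without IR 1, otherwise 0), 0 to 18 with QTP averaged (18 without Rx 1, 9 without IR 1 and 0 to 2 without each other library), 0 to 1 with radiation averaged and 0 to 3 in the interaction. The cause was not tested. TPM moved the interaction median of all genes from -0.03 to 0.14; that of the 10 genes was then 0.29, which is 0.15 above all genes.

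With the replicate block, 0 of the 10 genes were called in each comparison, and 90 genes were called in Combo against Con and 3 with radiation averaged. SLC7A11 then had an adjusted p of 0.0902 in Combo against Con and 0.0574 with QTP averaged. The block changed no other count of calls by over 1.5 times.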

Other observations

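The serine and one-carbon genes next to the glycine carrier SLC6A9 did not share a direction. PSAT1, which makes phosphoserine, had a log2 difference of 0.34 (SE 0.09) with QTP averaged, and PHGDH, the first enzyme of serine synthesis, one of 0.19 (SE 0.12). In Combo against Con, which also differs by radiation, PSAT1 was at 0.36 (SE 0.12) and PHGDH at 0.06 (SE 0.17). There TYMS, thymidylate synthase, was at -0.38 (SE 0.14), the cytosolic serine hydroxymethyltransferase SHMT1 at -0.31 (SE 0.08) and its mitochondrial counterpart SHMT2 at 0.06 (SE 0.19). SHMT1 differed by -0.07 (SE 0.06) with QTP averaged and by -0.24 (SE 0.08) in IR against Con. None of these passed limma's adjusted threshold.

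In Rx against Con, 0 of the 7 tested genes of branched-chain amino acid use had a higher mean (median -0.05), against 51.7% of all genes. Each of the 7 had a 95% interval that held 0. Of the carriers of these amino acids, SLC7A5 differed by 0.26 (SE 0.09) and SLC43A1 by 0.02 (SE 0.11). The direction was not shared by the QTP comparison among irradiated cells, where 3 of the 7 had a higher mean. With QTP averaged, 2 of the 7 did. A difference between the carriers and the genes of use was not tested.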
